A study of Mus musculus with 29 samples.

Results

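Mid recovery is the name used here for study weeks 11 and 13 of a mouse model in which heart failure was first induced and then left to resolve, and the comparison shows what still differed from control hearts at that stage. The members were the RNA sequencing libraries of the hearts labelled with week 6 and week 8 of recovery, which are called Recovery week 11 (n = 3) and Recovery week 13 (n = 2) after the week of the study, and they were 5 of the 24 libraries used and of the 29 samples of the series. They were set against the 5 control hearts of week 19 (Control week 19), together and apart. All hearts came from mice labelled C57BL6 and 3 months old at the start, which according to the methods were male C57BL/6J and were allocated to control or heart failure at random. Mice with heart failure drank water for 5 weeks that held L-NAME, a blocker of nitric oxide synthesis, at 0.3 mg/ml and NaCl at 1%, and received angiotensin II, a hormone that raises blood pressure, at 0.7 mg/kg/day from an osmotic pump lasting 28 days; the salt, the L-NAME and the angiotensin II were then withdrawn, 6 weeks before the hearts of Recovery week 11 and 8 weeks before those of Recovery week 13. The controls are labelled as age matched and as the controls for week 14 of recovery. They stood at week 19, 8 weeks later in the study than Recovery week 11 and 6 weeks later than Recovery week 13, so that earlier heart failure and age cannot be told apart in these comparisons. Levels in Recovery week 19 (n = 5), the hearts of the same study week as the controls, are given for some of the genes and lists. The tissue was labelled as whole heart and whole ventricle, and the methods name apical portions; the cell types in it were not separated, and more cells of a type and more RNA per cell cannot be told apart in such samples.

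The working heart holds, beside the cardiomyocytes, fibroblasts that make the collagen matrix, endothelial cells that line the vessels, and resident macrophages that clear debris and make complement C1q. Angiotensin II and pressure load are known to raise the natriuretic peptides and foetal muscle genes of cardiomyocytes, to activate fibroblasts through transforming growth factor beta (TGF-beta) and to bring in monocytes, and natriuretic peptide levels fall when the load is taken away. Fibroblast and macrophage genes, muscle genes, and stress genes are therefore described in turn.

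Expression was given as FPKM (fragments per kilobase of transcript and per unit of mapped fragments). The steps between low values, which 31.5 to 54.4% of the low genes followed in libraries other than the first control, gave relative depths of 0.835 to 1.13 of that of the first control library over the 10 libraries, and 16622 to 17140 genes were above 0 in each; the absolute depth is unknown. Control week 19 library 5 stood apart from the other controls. Its mean Pearson correlation with the other 4, across genes, was 0.9774, where those of libraries 1 to 4 were 0.9864 to 0.9887. The deviation of each gene from its mean over all libraries ran with GC content there, with a Spearman's rho across genes of -0.425, where the other controls were at -0.0202 to 0.117 and mid recovery at -0.19 to 0.0509. It also ran with transcript length: Spearman's rho across genes was -0.149 in control library 5, 0.0477 to 0.196 in the other controls, -0.369 to -0.241 in 4 mid recovery libraries and 0.156 in Recovery week 11 library 2. The abundant cardiomyocyte genes Myh6, Myl2, Mb and Actc1 were listed at 0 in every control library while the others of their kind were not, and no change is given for them or for any other gene listed at 0 throughout a group. Of the 12 cardiomyocyte markers, 9 could thus be used, and their summed level was 39010 to 44680 FPKM in the controls and 37380 to 52390 in mid recovery.

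In mid recovery, 16 genes were higher and 2 lower than in Control week 19 when the spread was estimated over all 24 libraries and called at a Benjamini-Hochberg adjusted p under 0.05, which is 0.125% and 0.0157% of 12759 genes tested. Of the 16, 6 were listed at 0 in every control library, and 1 of the other 10 had only a model name. Without these and all other genes listed at 0 in a whole group, 2 genes were called higher and 0 lower; 798 were higher and 835 lower at an unadjusted p under 0.05 in the main comparison. Without the libraries of HF weeks 3 and 5 the counts were 212 and 98. The 2 libraries of HF week 3 had a Pearson correlation of 0.8865, where each other library had a mean of 0.9573 or more with its group. In the first of the 2, 12816 genes were above 0, against 16339 or more in every other library. The median residual SD of a gene was 0.255 on the log2 scale over 24 libraries and 0.176 over the 10 libraries of the 3 groups. With the 10 libraries only, 302 genes were higher and 211 lower (2.41% and 1.68% of 12523), and the 18 genes of the main comparison were among them. The differences are the same on 24 and on 10 libraries and only their errors differ, so each p is given with the number of libraries it rests on.

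The number called on 10 libraries depended on single libraries. Without Control week 19 library 5 it rose to 1410 higher and 1502 lower. It was 117 and 95 without Recovery week 11 library 3, 164 and 55 without Recovery week 13 library 1, and 81 and 26 without Recovery week 13 library 2. Without Control week 19 libraries 1, 2, 3 and 4 in turn it was 85 and 24, 134 and 60, 83 and 30, and 90 and 31; without Recovery week 11 library 1 it was 254 and 125, and without library 2 of that week 438 and 476. Without any model, in 380 genes all 5 mid recovery libraries lay above all 5 controls, and in 259 all lay below, 2.98% and 2.03% of the genes tested.

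The macrophage genes were higher in mid recovery than in control hearts, and of the lists with at least 8 genes measured theirs had the largest median difference. Of 12 macrophage markers, 9 were called higher and none lower on 10 libraries, where 2.41% of all genes were called higher. Their median difference was 0.81 on the log2(FPKM + 0.5) scale, where the median over all genes tested was -0.00159. All 12 differences were above 0. In 7 of the 12 all mid recovery libraries lay above all controls, as in 2.98% of all genes. The summed level of the list was 611 to 955 FPKM in mid recovery, above the 335 to 551 of the controls, and 411 to 868 in Recovery week 19. None of the 12 was called on 24 libraries. The count of 9 was 5 without Recovery week 11 library 3 and 5 without Control week 19 library 2, 4 without Recovery week 13 library 2 or any of Control week 19 libraries 1, 3 and 4, and 10 without Control week 19 library 5, and the median stayed between 0.73 and 0.91. With the trends on GC content and length removed the count was again 9; it was 6 with rescaled sums, in which each library is scaled by its total without the genes among the 10 highest of any library and those listed at 0, and 4 with no filter on low values.

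Among the macrophage genes picked by size of change, Ccl8, a chemokine that draws monocytes, differed most. Its level was 19.5, 21.4 and 31.4 FPKM in Recovery week 11, 29.4 and 79.4 in Recovery week 13, and 7.56, 2.82, 3.33, 4.94 and 5.57 in the controls. All mid recovery hearts lay above all controls, and the difference was 2.65 (SE 0.476, adjusted p = 0.0251 on 24 libraries, and SE 0.301, adjusted p = 0.00311 on 10). Ccl8 lost its call on 24 libraries in 8 of 25 alternatives to the processing. In Recovery week 19 it was 10.2 to 53.5 FPKM, also above every control, and in the 4 hearts of Recovery weeks 7 and 9 it was 2.22 to 8.91. Of 19 chemokine and cytokine genes with a test on 10 libraries Ccl8 was the only one called (4 were called without Control week 19 library 5 and 2 without Recovery week 13 library 1), and differences were -0.32 for Ccl2 and -0.78 for Ccl7, which also attract monocytes.

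Ms4a7, a membrane protein of tissue macrophages, was measured at 7.81, 6.68 and 9.88 FPKM in Recovery week 11 and at 9.28 and 11.8 in Recovery week 13. The controls gave 2.93, 3.44, 2.45, 1.96 and 3.4, a difference of 1.52 (SE 0.229, adjusted p = 0.00368 on 24 libraries, and SE 0.153, adjusted p = 0.00141 on 10), and no library of one side reached the other. Trem2, a lipid-sensing receptor of macrophages, was at 7.0, 6.42 and 11 FPKM at week 11, 13 and 12.9 at week 13 and 3.17, 3.73, 2.24, 2.28 and 4.59 in the controls. This was a difference of 1.5 (SE 0.283, adjusted p = 0.0338 on 24 libraries, and SE 0.195, adjusted p = 0.00794 on 10), with week 13 above week 11. Apoe, the lipid carrier that macrophages secrete, was at 1041 to 1444 FPKM in mid recovery against 460.3 to 638 in the controls, a difference of 1.19 (SE 0.238, adjusted p = 0.0492 on 24 libraries, and SE 0.113, adjusted p = 0.00109 on 10). Apoe lost its call on 24 libraries in 16 of 25 alternatives to the processing. Of the 11 genes named by size of change, only Ms4a7 kept its call on 24 libraries under all of them. In Recovery week 19, Ms4a7 was at 5.17 to 9.45, Trem2 at 4.83 to 11.1 and Apoe at 843 to 1433 FPKM, each range above the highest control library.

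The promoters of Trem2 and Ms4a7 are shown because both macrophage genes were among the largest rises called on 24 libraries. The transcription factor PU.1, which directs the macrophage programme, binds sites with the core letters GAGGAA. This core was searched on both strands in RefSeq promoters of the build GRCm38.p6 (250 bases before to 50 after a start), and 28.3% of 32851 promoters held it. Counted by gene, 31.3% of 27025 genes had it in a promoter, and 6 of the 8 macrophage markers with an entry by symbol had it. Each promoter is printed from 5′ to 3′ on the strand of the gene, with the match in capitals. A match is no proof of binding. The match in Trem2 begins 40 bases before the start and reads on the other strand, and that in Ms4a7 begins 44 bases into the transcript; the other RefSeq promoter of Ms4a7 held no match and is not shown.
Trem2 promoter, chr17:48346151-48346450, plus strand: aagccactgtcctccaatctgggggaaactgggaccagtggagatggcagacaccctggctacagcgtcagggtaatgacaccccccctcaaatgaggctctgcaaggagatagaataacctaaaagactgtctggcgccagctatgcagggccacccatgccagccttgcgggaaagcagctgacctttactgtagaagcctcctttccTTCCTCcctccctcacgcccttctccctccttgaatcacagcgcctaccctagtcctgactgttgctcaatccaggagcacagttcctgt
Ms4a7 promoter, chr19:11336097-11336396, minus strand: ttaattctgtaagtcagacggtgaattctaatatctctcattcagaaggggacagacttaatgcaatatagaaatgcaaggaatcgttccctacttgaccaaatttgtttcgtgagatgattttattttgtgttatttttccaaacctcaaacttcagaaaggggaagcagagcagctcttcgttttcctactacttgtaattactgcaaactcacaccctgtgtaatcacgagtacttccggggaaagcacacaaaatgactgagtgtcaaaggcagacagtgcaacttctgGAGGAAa

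The other macrophage markers are named because they were called on 10 libraries, a choice made after their values were seen. Cd68, a lysosomal protein of phagocytes, was at 22.8, 13.7 and 22.9 FPKM in Recovery week 11, 21.5 and 25.1 in Recovery week 13 and 8.28, 8.5, 6.54, 4.26 and 5.88 in the controls, a difference of 1.6 (SE 0.195, adjusted p = 0.00519 on 10 libraries and 0.167 on 24). Its lowest mid recovery library lay above the highest control. Csf1r, the growth factor receptor on which macrophages depend, was at 12.9 to 18.5 against 7.81 to 11.2 FPKM, a difference of 0.75 (SE 0.12, adjusted p = 0.0133 on 10 libraries and 0.132 on 24). Lyz2, the lysozyme of myeloid cells, was at 144 to 249.5 against 67.5 to 141, with control library 5 the highest control, and differed by 1.0 (SE 0.201, adjusted p = 0.0292 on 10 libraries and 0.126 on 24). Emr1 (F4/80) differed by 0.80 (SE 0.17, adjusted p = 0.0332 on 10 libraries and 0.203 on 24) and Mrc1, the mannose receptor of resident macrophages, by 0.73 (SE 0.142, adjusted p = 0.0261 on 10 libraries and 0.131 on 24). Aif1 was at 6.32 to 21.4 FPKM in mid recovery and 3.83 to 9.85 in the controls, where library 5 lay inside the mid recovery range, and differed by 1.06 (SE 0.248, adjusted p = 0.0423 on 10 libraries and 0.169 on 24). Of the 12 markers Cd14 (0.31), Cd163 (0.42) and Fcgr1 (0.47) were not called.

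**Figure D1:**
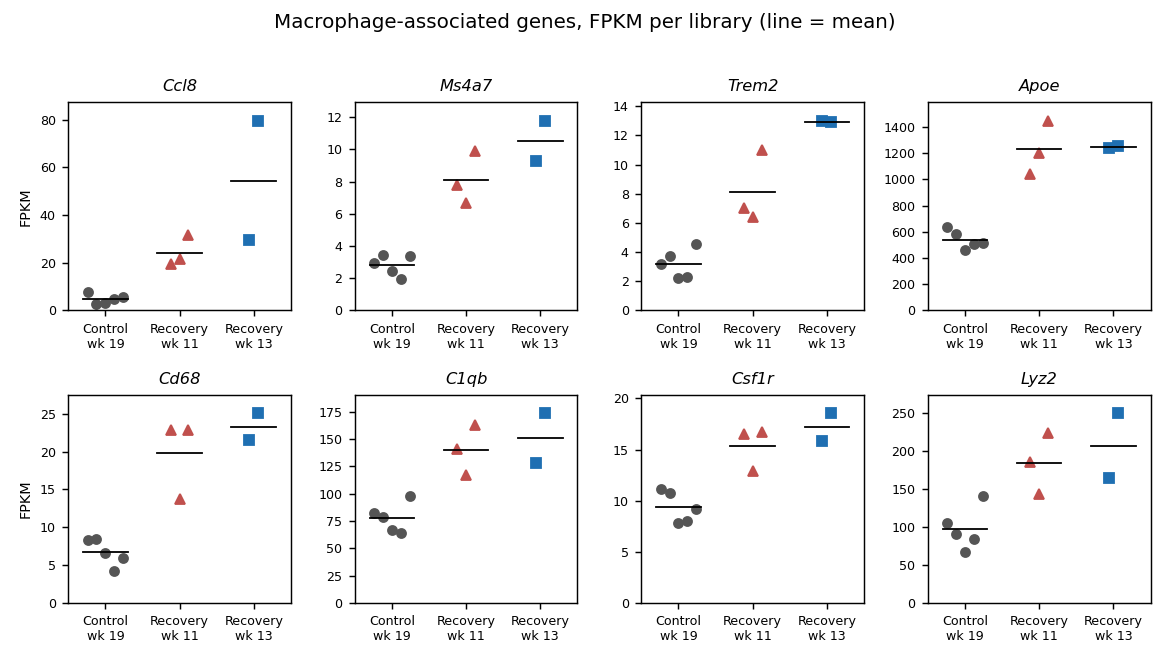
FPKM (vertical axis, from 0) of 8 macrophage-associated genes in each library of Control week 19 (grey circles, n = 5), Recovery week 11 (red triangles, n = 3) and Recovery week 13 (blue squares, n = 2); the black line is the group mean. Ccl8, Ms4a7, Trem2, Apoe and Cd68 show no overlap between the mid recovery libraries and the controls, and Ccl8 reached 79.4 FPKM in one library of Recovery week 13.

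Complement genes were called higher as well. Of 14 complement genes with a test on 10 libraries, 7 were called higher and none lower, where 2.41% of all genes were called higher. The median difference over the 16 measured was 0.68, and the count was 4 to 10 when single libraries were left out. It fell to 4 without Recovery week 13 library 2 or any of Control week 19 libraries 1, 3 and 4. The C1q chains C1qa, C1qb and C1qc, which are on the macrophage list too, differed by 0.82, 0.89 and 0.88 (adjusted p = 0.0218, 0.0132 and 0.0132 on 10 libraries). C1qb was at 141, 117 and 163 FPKM at week 11 and 128 and 174 at week 13, above the 82.5, 78.9, 66.8, 64 and 98.1 of the controls. Serping1, the C1 inhibitor, differed by 0.82 (SE 0.166, adjusted p = 0.0294 on 10 libraries and 0.171 on 24). C1ra, a protease of the C1 complex, differed by 0.77 (SE 0.115, adjusted p = 0.0118 on 10 libraries and 0.0651 on 24) and C5ar1, the C5a receptor of myeloid cells, by 0.65 (SE 0.137, adjusted p = 0.0329 on 10 libraries and 0.2 on 24).

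Genes of antigen presentation lay above 0 in all 15 members measured, with a median of 0.40, and 2 were called higher on 10 libraries (12 without Control week 19 library 5, 1 without Control week 19 library 2, and 0 without Recovery week 11 library 1 or 3, either library of Recovery week 13 or Control week 19 library 1, 3 or 4, and 0 with no filter on low values, with rescaled sums or with quantile normalization). These were the class I chain H2-D1 (difference 0.38, SE 0.0867, adjusted p = 0.0392 on 10 libraries and 0.243 on 24) and the peptide loader Tapbp (difference 0.28, SE 0.0633, adjusted p = 0.0398 on 10 libraries and 0.184 on 24). Over all genes 2.41% were called higher on 10 libraries. The median of the list was 0.18 at week 11 and 0.74 at week 13. Interferon-stimulated genes had no call among 21 with a test on 10 libraries, with medians of 0.0523 and 0.34, but 7 were called higher without Control week 19 library 5. T lymphocyte markers were mostly below the filter, and 3 of 8 were measured, with a sum of 2.42 to 6.3 FPKM in mid recovery and 2.67 to 3.54 in the controls; of 6 neutrophil markers 4 were measured, with sums of 3.4 to 20 and 5.62 to 38.7. Of 6 B lymphocyte markers 2 were measured, Cd79a and Cd79b, with a sum of 2.43 to 3.62 FPKM in mid recovery, above the 0.892 to 2.08 of the controls. No member of the lymphocyte or neutrophil lists was called on 10 or 24 libraries, and 1 T lymphocyte marker was called higher without Recovery week 11 library 1 or Control week 19 library 5.

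Most fibroblast genes stood above control as well. Of 12 fibroblast markers 8 were called higher and none lower on 10 libraries, where 2.41% of all genes were called higher. Pdgfra was called on 24 libraries. The median difference was 0.64, and 11 of the 12 differences lay above 0, with the lowest at -0.21. In 8 of the 12 all mid recovery libraries lay above all controls, as in 2.98% of all genes. The summed level was 1413 to 2303 FPKM in mid recovery, 885 to 1124 in the controls and 1139 to 1850 in Recovery week 19. At week 11 the median was 0.76 with 7 called, and at week 13 it was 0.46 with none called. The count of 8 was 3 without Control week 19 library 1, 4 without Control week 19 library 3 or Recovery week 13 library 2, 5 without Control week 19 library 2 or 4, and 10 without Control week 19 library 5; it was 5 with rescaled sums and 3 with no filter on low values. The median kept within 0.54 and 0.74 when single libraries were left out.

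Pdgfra, the receptor that marks cardiac fibroblasts, was at 4.79, 6.22 and 7.44 FPKM in Recovery week 11 and 4.17 and 5.03 in Recovery week 13. The controls were at 3.15, 2.91, 2.46, 3.88 and 3.48, so that the groups did not overlap, and the difference was 0.70 (SE 0.137, adjusted p = 0.0407 on 24 libraries, and SE 0.136, adjusted p = 0.0257 on 10). Dcn, the small proteoglycan decorin, was at 258 to 479 against 149 to 239 FPKM and differed by 0.83 (SE 0.165, adjusted p = 0.0284 on 10 libraries and 0.11 on 24). Gsn, an actin-severing protein abundant in fibroblasts, was at 1024, 1300 and 1373 FPKM at week 11, 875 and 1133 at week 13 and 617, 698, 548, 659.7 and 637 in the controls, a difference of 0.84 (SE 0.111, adjusted p = 0.00812 on 10 libraries and 0.0617 on 24). Dpt (dermatopontin) differed by 0.80 (SE 0.129, adjusted p = 0.0141 on 10 libraries and 0.138 on 24). Mfap5, a microfibril protein, was at 43.5, 60.9 and 73.8 FPKM at week 11 but 29.4 and 31.6 at week 13, against 23.9, 21, 17.9, 25.9 and 27.8 in the controls. Its difference was thus 1.31 at week 11 and 0.40 at week 13, and 0.95 (SE 0.151, adjusted p = 0.0133 on 10 libraries and 0.203 on 24) over both. No difference between the weeks was called for Mfap5. Pdgfrl was at 2.33, 4.37 and 6.53 FPKM at week 11 and 1.05 and 2.36 at week 13, against 0.753, 0.652, 1.0, 0.845 and 0.791 in the controls.

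Vat1, a vesicle membrane protein, was also called on 24 libraries. It was at 30.9, 34.2 and 37.1 FPKM in Recovery week 11, 29.9 and 31.2 in Recovery week 13 and 21.5, 21.1, 19.7, 19.7 and 21 in the controls, a difference of 0.65 (SE 0.107, adjusted p = 0.0109 on 24 libraries, and SE 0.0653, adjusted p = 0.00141 on 10). Bmper, a secreted regulator of bone morphogenetic proteins, was at 2.69, 4.06 and 3.02 and 2.25 and 3.41 FPKM in these weeks against 1.56, 1.49, 1.13, 1.05 and 1.32. Its difference was 0.97 (SE 0.18, adjusted p = 0.0321 on 24 libraries, and SE 0.142, adjusted p = 0.0109 on 10). Inmt, an indolethylamine methyltransferase, was at 46.8, 159 and 174 and 71.9 and 128 FPKM against 30.2, 32.3, 18.9, 25.2 and 28.2 and varied widely among the recovery hearts, with a difference of 1.95 (SE 0.361, adjusted p = 0.0321 on 24 libraries, and SE 0.336, adjusted p = 0.0176 on 10). Bmper and Inmt each lost the call on 24 libraries in 11 of 25 alternatives to the processing. Uap1l1, a relative of the enzyme that makes UDP-N-acetylglucosamine, was at 7.7 to 10.7 against 4.02 to 6.21 FPKM and differed by 0.81 (SE 0.154, adjusted p = 0.0344 on 24 libraries, and SE 0.12, adjusted p = 0.0118 on 10).

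**Figure D2:**
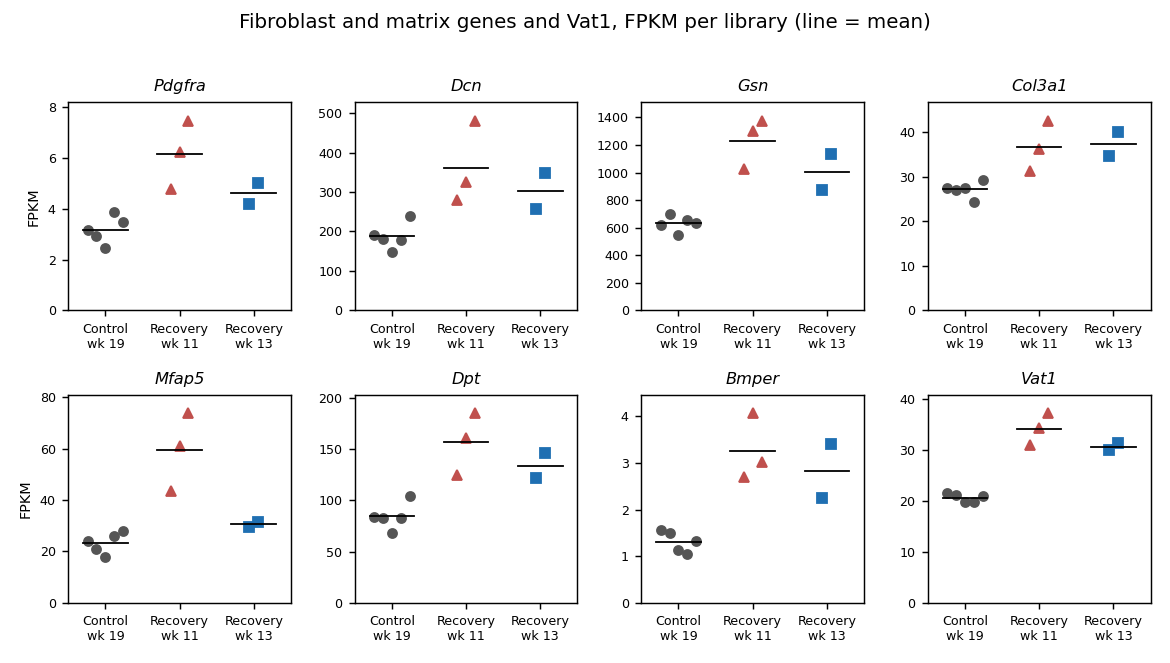
FPKM (vertical axis, from 0) of 7 fibroblast and matrix genes and of Vat1 in each library, with symbols for Control week 19 (grey circles, n = 5), Recovery week 11 (red triangles, n = 3) and Recovery week 13 (blue squares, n = 2) and a line at the group mean. All recovery libraries lie above all controls in each panel, and for Mfap5 the libraries of week 13 (29.4 and 31.6 FPKM) lie close to the highest control (27.8 FPKM).

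Among 28 collagen and matrix genes measured, 10 were called higher and none lower on 10 libraries, where 2.41% of all genes were called higher. The median difference was 0.43, with 0.57 at week 11 and 0.25 at week 13. At week 11 alone 11 were called higher, and at week 13 alone none was called higher and 1 lower; whether the list differed between the weeks was not tested. Fibrillar collagen Col3a1 was at 31.4 to 42.5 against 24.5 to 29.4 FPKM, a difference of 0.43 (SE 0.0892, adjusted p = 0.0306 on 10 libraries and 0.252 on 24). Col1a1, the chain of type I collagen, was not called: it was at 24, 32.3 and 31.4 FPKM at week 11, 21.3 and 24 at week 13 and 20.4, 22.7, 21.8, 18.9 and 12.7 in the controls, with a difference of 0.46 (SE 0.153, adjusted p = 0.111 on 10 libraries and 0.252 on 24). The partner chain Col1a2 differed by 0.58 (SE 0.119, adjusted p = 0.0304 on 10 libraries and 0.171 on 24). The type VI chains Col6a1 and Col6a2 differed by 0.43 and 0.39 (adjusted p = 0.0304 and 0.03 on 10 libraries). Comp, a matrix protein of tendon and scar, was at 3.61, 11.1 and 14.2 FPKM at week 11, 1.25 and 2.67 at week 13 and 1.04, 1.49, 0.865, 0.821 and 0.295 in the controls, a difference of 1.96 (SE 0.357, adjusted p = 0.0223 on 10 libraries and 0.0636 on 24). Loxl1, which cross-links elastin, differed by 0.57 (SE 0.0939, adjusted p = 0.0163 on 10 libraries and 0.197 on 24) and Bgn, the proteoglycan biglycan, by 0.71 (SE 0.157, adjusted p = 0.0352 on 10 libraries and 0.239 on 24). Postn, the matricellular protein of activated fibroblasts, was not called, at 5.68, 10.4 and 16.3 and 6.21 and 6.4 FPKM against 5.51, 4.19, 4.69, 3.92 and 8.41, where control library 5 was the highest. The count of 10 was 1 without any of Control week 19 libraries 1, 3 and 4, 3 without Control week 19 library 2 or Recovery week 11 library 3, 2 without Recovery week 13 library 2 and 18 without Control week 19 library 5. It was 1 with rescaled sums and 1 with no filter on low values.

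In the TGF-beta pathway 3 of 20 genes measured were called higher and none lower on 10 libraries, 5 were without Recovery week 11 library 1, 5 with the trends on GC content and length removed, and 1 was with rescaled sums. Over all genes 2.41% were called higher on 10 libraries. The ligand Tgfb1 was at 14.8 to 17.2 against 11.3 to 14.4 FPKM and differed by 0.36 (SE 0.0813, adjusted p = 0.0361 on 10 libraries and 0.117 on 24). The target Tgfbi differed by 0.78 (SE 0.135, adjusted p = 0.0181 on 10 libraries and 0.136 on 24). Ctgf, a target of TGF-beta and of mechanical load, was at 44.8, 46.3 and 55.3 FPKM in Recovery week 11, above all controls, and at 24.3 and 25.9 in Recovery week 13, inside the control range of 19.2 to 29.8. The difference was 1.11 (SE 0.135, adjusted p = 0.00674) at week 11 and 0.17 (SE 0.155, adjusted p = 0.517) at week 13, both on 10 libraries, and at HF week 5, the end of induction, Ctgf was at 82.7 to 143 FPKM.

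No load-dependent gene of cardiomyocytes passed the test on 24 libraries. The 15 hypertrophy genes measured had a median difference of 0.0869. Their summed level was 7346 to 10710 FPKM in mid recovery, above the 6100 to 7047 of the controls. Over the 14 with a test on 10 libraries the median was 0.13, and it was -0.00165 with rescaled sums and -0.0213 with quantile normalization. The best known of them are given by name. Nppb, the brain natriuretic peptide, was at 668, 827 and 1317 FPKM at week 11, 551 and 574 at week 13 and 232, 358, 271, 338 and 619 in the controls. One control, library 5, lay above both hearts of week 13, and the difference was 1.12 (SE 0.257, adjusted p = 0.0398 on 10 libraries and 0.202 on 24). Nppa, the atrial natriuretic peptide, was at 354, 1188 and 1421, then 418 and 468, against 202, 344, 249.6, 268 and 81.1 FPKM, a difference of 1.65 (SE 0.437, adjusted p = 0.0601 on 10 libraries and 0.294 on 24), and was at 2100 to 42000 FPKM at HF week 5, with a median of 2214 over 3 libraries. Of the 8 atrial markers, Nppa among them, 7 were measured, all with differences above 0 and a median of 0.57; none was called on 10 or 24 libraries, 2 were without Recovery week 11 library 1 and 1 without Control week 19 library 5. The sum of the list was 409 to 1475 FPKM in mid recovery and 129 to 399 in the controls, most of it Nppa, and at HF week 5 it was 82550 in the library with the highest Nppa and 2256 and 2559 in the others. The part of atrial tissue in these values was not tested. Myh7, the foetal myosin heavy chain, was at 22, 81.7 and 219.6 and 42 and 47.1 FPKM against 21.1, 27.1, 43.4, 48.1 and 16.3, with one library of week 11 far above the others and another within the control range, and differed by 1.05 (SE 0.523, adjusted p = 0.242 on 10 libraries and 0.317 on 24). Skeletal actin Acta1 was at 429.8, 424 and 902 and 341 and 414 against 227, 436, 153, 237 and 129 FPKM and differed by 1.13 (SE 0.321, adjusted p = 0.0744 on 10 libraries and 0.207 on 24). Of the 14 genes of hypertrophy with a test on 10 libraries, Nppb was the one called, and none was without Recovery week 11 library 2 or 3, either library of Recovery week 13 or Control week 19 library 1, 3 or 4, or with no filter on low values. Without Recovery week 11 library 1 there were 3, and without Control week 19 library 5 there were 2. Ace, the enzyme that makes angiotensin II, was at 33.9, 36.3 and 41.6 FPKM at week 11 and 26.5 and 29.9 at week 13, above the 24.1, 25, 20.2, 21.2 and 21.2 of the controls, a difference of 0.57 (SE 0.0848, adjusted p = 0.0118 on 10 libraries and 0.0618 on 24).

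The study asked whether endothelial cells take on mesenchymal traits during failure and recovery, and of 13 genes linked to this transition, most of them named in its text, only Ctgf was called on 10 libraries. Without Control week 19 library 5, 3 were called higher and 1 lower, without Recovery week 11 library 2, 2 were called higher, and with rescaled sums none was. Cdh5, the junction protein VE-cadherin of endothelial cells, was at 40.3, 38.1 and 35 FPKM at week 11, 39 and 36 at week 13 and 49.4, 43.8, 47.8, 47.8 and 39.8 in the controls, a difference of -0.27 (SE 0.0754, adjusted p = 0.0693 on 10 libraries and 0.565 on 24); without Control week 19 library 5 it was called lower (difference -0.32, adjusted p = 0.0107 on 9 libraries). S100a4, the fibroblast-specific protein FSP1, was at 34.5, 16.8 and 25.9, 35.5 and 42.6 and 29.1, 25, 19.4, 20.2 and 50.4 FPKM and differed by 0.13 (SE 0.263, adjusted p = 0.786 on 10 libraries and 0.895 on 24). The transcription factors Snai1 and Klf4 differed by -0.19 and -0.0437 (adjusted p = 0.626 and 0.893 on 10 libraries). The study names most of the 13 with their levels in other samples of this series, so that their count is no independent evidence. Of 13 endothelial markers 1 was called higher on 10 libraries, where 2.41% of all genes were, and at week 13 alone 2 were called lower. The 1 was Vwf, the clotting factor stored in endothelial cells, at 18.6 to 26.3 against 16.2 to 18.1 FPKM with a difference of 0.40 (SE 0.0932, adjusted p = 0.0412 on 10 libraries and 0.568 on 24); the list's median was -0.075, and its sum was 433 to 518 FPKM in mid recovery and 457 to 569.6 in the controls. No endothelial marker was called higher without Recovery week 11 library 1 or 3, either library of Recovery week 13 or any one of Control week 19 libraries 1 to 4, or with no filter or rescaled sums; without Control week 19 library 5, 2 were called higher and 3 lower, and without Recovery week 11 library 2, 1 and 2. Of 10 pericyte and smooth muscle markers 1 was called higher, Pdgfrb (difference 0.32, SE 0.0711, adjusted p = 0.0367 on 10 libraries and 0.229 on 24), while Myh11 and Tagln differed by -0.50 and -0.34 and were not called. No marker of that list was called higher without any one library of Recovery week 11, Recovery week 13 library 2 or any one of Control week 19 libraries 1 to 4, or with no filter, rescaled sums or equal weights for the weeks. Without Control week 19 library 5, 2 of its markers were called higher and 3 lower. Of 6 lymphatic endothelial markers measured 5 differences lay above 0, with a median of 0.49. None was called on 10 libraries, 1 was called higher at week 11 alone, and 0 to 3 were with single libraries left out. Their sum was 21.02 to 29.83 FPKM in mid recovery and 17.1 to 21.05 in the controls.

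**Figure D3:**
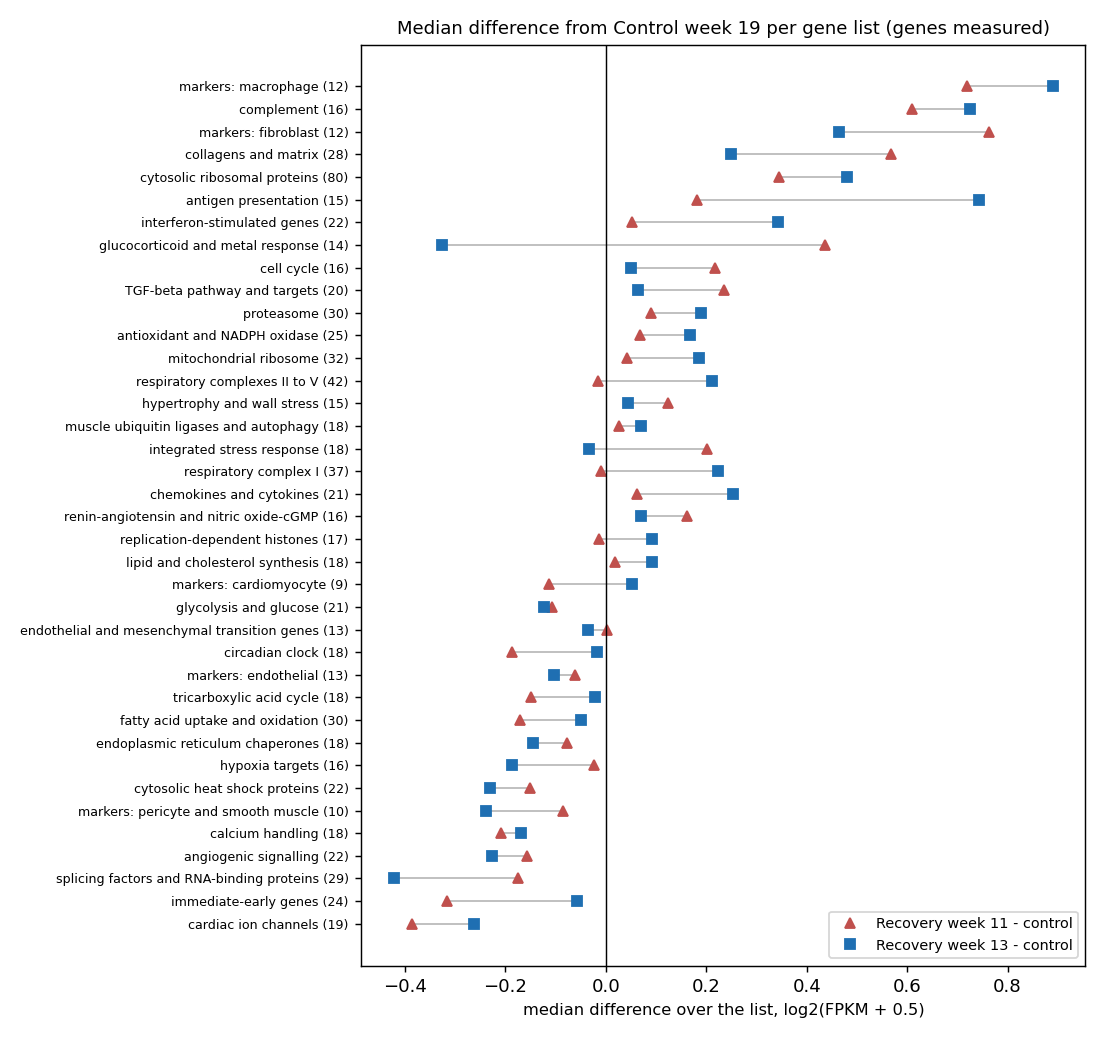
Median difference of each gene list from Control week 19 on the log2(FPKM + 0.5) scale (horizontal axis) at Recovery week 11 (red triangles) and Recovery week 13 (blue squares), for lists with 8 or more genes measured (number in brackets), ordered by the median of both weeks together. By that median the macrophage, complement and fibroblast lists stand highest and cardiac ion channels lowest, and the medians of the glucocorticoid and metal list fall on opposite sides of 0 (0.44 and -0.33).

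On 24 libraries the genes called lower were Myo5c, an unconventional myosin that carries vesicles, and Slc25a47, a carrier of the mitochondrial inner membrane. Myo5c was at 1.74, 0.903 and 0.795 FPKM in Recovery week 11, 0.724 and 1.04 in Recovery week 13 and 2.95, 2.67, 2.86, 2.56 and 3.2 in the controls, a difference of -1.15 (SE 0.223, adjusted p = 0.0394 on 24 libraries, and SE 0.152, adjusted p = 0.00812 on 10). Slc25a47 was at 2.8, 3.48 and 2.57 and 2.16 and 3.14 FPKM against 4.75, 5.33, 6.06, 4.29 and 4.74, a difference of -0.74 (SE 0.139, adjusted p = 0.0338 on 24 libraries, and SE 0.123, adjusted p = 0.0163 on 10). In both all mid recovery hearts lay below all controls. No gene was called lower on 24 libraries without genes listed at 0, with no filter or with rescaled sums. None was without Recovery week 11 library 3, Recovery week 13 library 1 or Control week 19 library 1, 2 or 3.

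Some targets of low oxygen and some angiogenic genes were lower. Of 16 hypoxia targets 4 were called lower and none higher on 10 libraries, where 1.68% of all genes were called lower. Of 22 angiogenic genes 3 were called lower and none higher, and Vegfa is on both lists. The medians of the lists were -0.16 and -0.21, and 6 differences on each lay above 0. At week 13 alone 4 and 5 were called lower, where 0.95% of all genes were, and at week 11 alone none. Whether the lists differed between the weeks was not tested. Vegfa, the growth factor of vessels, was at 76.8, 86.8 and 29 FPKM at week 11, 25.9 and 28.1 at week 13 and 96.3, 83.1, 133, 122.7 and 83.4 in the controls. Library 3 of week 11 lay with the week 13 hearts, and the difference was -1.24 (SE 0.271, adjusted p = 0.0347 on 10 libraries and 0.128 on 24). Egln3, an oxygen-sensing prolyl hydroxylase, was at 27.4, 28.5 and 17.3 FPKM at week 11, 20.2 and 15.8 at week 13 and 34.7, 30.2, 48.7, 44 and 36.3 in the controls, a difference of -0.83 (SE 0.165, adjusted p = 0.0281 on 10 libraries and 0.0574 on 24). The collagen prolyl hydroxylases P4ha1 and P4ha2 differed by -0.29 and -0.24 at week 11 and by -0.85 and -0.85 at week 13. P4ha2 was at 14.5 and 14.8 FPKM at week 13, under the control range of 24.2 to 29.5. Dll4 and Notch1, ligand and receptor of vessel branching, differed by -0.38 and -0.39 (adjusted p = 0.0408 and 0.0415 on 10 libraries). Without either library of Recovery week 13 no hypoxia target and no angiogenic gene was called. Without Control week 19 library 5, 6 were called on each list; without Control week 19 libraries 1, 2, 3 and 4 in turn 1, 2, 1 and 1 hypoxia targets and no angiogenic genes were called; and without Recovery week 11 library 2, 5 angiogenic genes were. With no filter on low values and with rescaled sums 1 hypoxia target and no angiogenic gene was called, and with the trends on GC content and length removed 5 and 1 were.

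A few ion channel and calcium handling genes of cardiomyocytes were called lower. Over all genes 1.68% were called lower on 10 libraries. Of 19 ion channel genes 16 differences lay below 0, the median was -0.36, and 2 were called lower on 10 libraries, the potassium channel subunits Kcnd3 (difference -0.50, SE 0.105, adjusted p = 0.0326 on 10 libraries and 0.244 on 24) and Kcnv2 (difference -0.67, SE 0.149, adjusted p = 0.0355 on 10 libraries and 0.184 on 24). Of 18 calcium handling genes 2 were called lower; 10 were without Control week 19 library 5, 1 without Recovery week 11 library 1 or 3, and none without either library of Recovery week 13 or any one of Control week 19 libraries 1 to 4. Cacna1c, the pore of the L-type calcium channel, was at 13.2, 17.8 and 9.98 FPKM at week 11, 11.1 and 10.7 at week 13 and 23.1, 21.8, 25.5, 24.5 and 16.3 in the controls, a difference of -0.82 (SE 0.156, adjusted p = 0.0251 on 10 libraries and 0.169 on 24). Ryr2, the calcium release channel, was at 22.6, 25.8 and 17.8, 22.9 and 21.2 and 34, 32.6, 34.1, 39.7 and 25.9 FPKM and differed by -0.58 (SE 0.123, adjusted p = 0.0333 on 10 libraries and 0.146 on 24). Atp2a2, the calcium pump SERCA2a, was at 1406 to 1770 against 1555 to 2098 FPKM and was not called (difference -0.23, SE 0.104, adjusted p = 0.211 on 10 libraries and 0.507 on 24), nor was Jph2, which holds the calcium release unit together (difference -0.74, SE 0.287, adjusted p = 0.151 on 10 libraries and 0.348 on 24). Ttn, the giant spring of the sarcomere, was at 337, 381 and 292, 288 and 268 and 416, 403, 402, 454 and 373 FPKM and differed by -0.39 (SE 0.0856, adjusted p = 0.0347 on 10 libraries and 0.358 on 24). Ryr2 and Ttn are long transcripts, and 4 of the 5 mid recovery libraries, and Control week 19 library 5, ran low in long genes. With the trends on GC content and length removed, the difference was -0.36 for Ryr2 (adjusted p = 0.0281 on 10 libraries) and -0.11 for Ttn (adjusted p = 0.208 on 10 libraries), which was then no longer called, and 3 ion channel and 3 calcium handling genes were called lower. With rescaled sums, and with no filter on low values, no ion channel or calcium handling gene was called lower, and neither were Ryr2 and Ttn. Without Recovery week 11 library 3, either library of Recovery week 13 or any one of Control week 19 libraries 1 to 4 no ion channel gene was, without Recovery week 11 library 2 there were 4, and without Control week 19 library 5 there were 12.

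**Figure D4:**
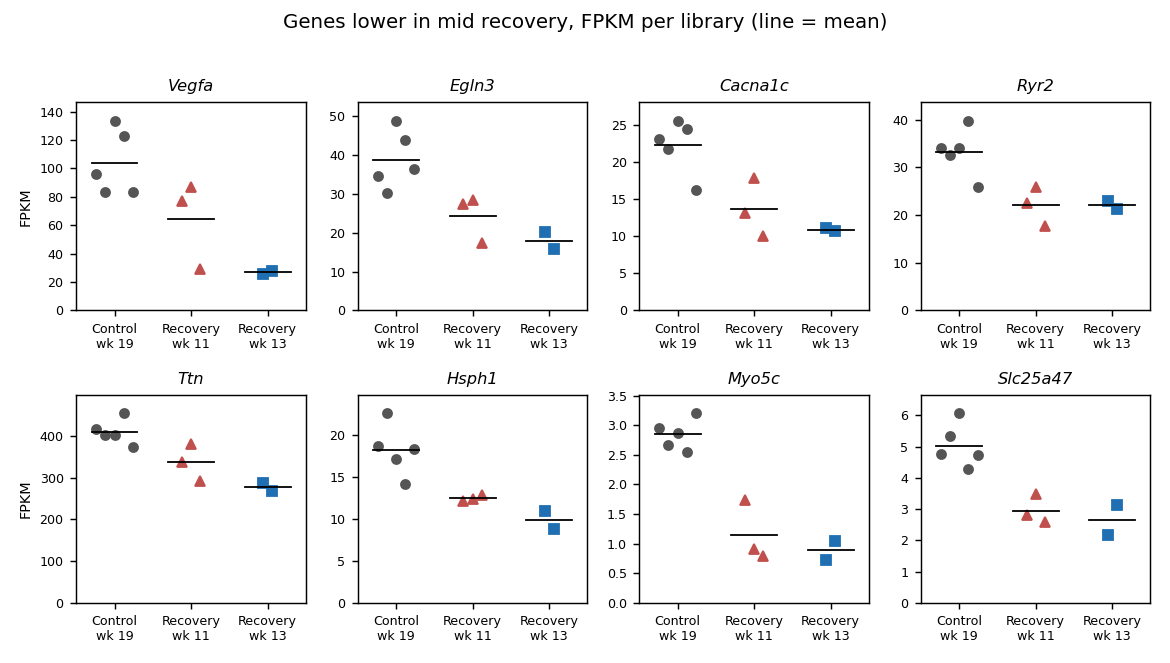
FPKM (vertical axis, from 0) of 8 genes that were lower in mid recovery, in each library of Control week 19 (grey circles, n = 5), Recovery week 11 (red triangles, n = 3) and Recovery week 13 (blue squares, n = 2), with a line at the group mean. The week 13 libraries lie below all controls in every panel, and Vegfa was at 29 FPKM in Recovery week 11 library 3, beside 25.9 and 28.1 at week 13.

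Of 22 cytosolic heat shock genes 4 were called lower and none higher on 10 libraries, where 1.68% of all genes were called lower. The median of the list was -0.18. Hsph1, a co-chaperone of HSP70, was at 12.1, 12.3 and 12.9, 10.9 and 8.81 and 18.7, 22.6, 17.1, 14.1 and 18.3 FPKM in weeks 11, 13 and the controls, a difference of -0.65 (SE 0.113, adjusted p = 0.0187 on 10 libraries and 0.264 on 24). Dnaja1, Chordc1 and Bag3, which also assist HSP70 or HSP90, differed by -0.65, -0.56 and -0.28 (adjusted p = 0.0348, 0.0221 and 0.0298 on 10 libraries). The count was 0 to 8 with single libraries left out: it was 0 without Recovery week 13 library 2 or Control week 19 library 1, 2 without Recovery week 11 library 3, Recovery week 13 library 1 or Control week 19 library 2 or 3, and 8 without Control week 19 library 5. With quantile normalization it was 10, and with the trends on GC content and length removed 8. Of 29 splicing factors and RNA-binding proteins 6 were called lower and 1 higher, against 1.68% and 2.41% of all genes. The falls were the splicing factors Luc7l, Luc7l2, Rbm5, Rbm25 and Srsf6 and the helicase Ddx17, from -0.76 to -0.30, and the rise was Rbm3, the cold-induced RNA-binding protein, at 66.7 to 99.98 against 53.3 to 63.6 FPKM (difference 0.53, SE 0.0829, adjusted p = 0.0132 on 10 libraries and 0.264 on 24). Malat1, an RNA that stays in the nucleus, was at 33.2, 39.7 and 14.6 FPKM at week 11, 15.1 and 24 at week 13 and 67.2, 45.9, 56.5, 75.9 and 34.2 in the controls, a difference of -1.19 (SE 0.291, adjusted p = 0.0488 on 10 libraries and 0.272 on 24), where library 2 of week 11 overlapped the controls. Malat1 was not called on 10 libraries without Recovery week 11 library 1 or 3, either library of Recovery week 13 or any one of Control week 19 libraries 1 to 4, nor with a pseudocount of 0.1, no filter, quantile normalization or rescaled sums. Malat1 lay lower in the same libraries as the splicing factors, and the part of nuclear RNA in these falls was not tested. Of the falls in splicing factors none was called without Recovery week 13 library 1 or Control week 19 library 3 or 4, 1 without Recovery week 13 library 2 or Control week 19 library 1, 3 without Recovery week 11 library 3 or Control week 19 library 2, 11 without Recovery week 11 library 2 and 15 without Control week 19 library 5. None was with no filter on low values, 1 was with rescaled sums and 11 were with the trends on GC content and length removed.

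Of the genes of energy metabolism 1 passed the test on 10 libraries, and this count changed with single libraries, most without Control week 19 library 5, and with the processing. None of 37 genes of respiratory complex I, 42 of complexes II to V, 18 of the tricarboxylic acid cycle and 21 of glycolysis and glucose uptake was called on 10 or 24 libraries; their medians were 0.0692, 0.0884, -0.0844 and -0.0283. Of 30 genes of fatty acid use 1 was called, Pdk4, which is described with the weeks. Pdk4 was no longer called without any one library of Recovery week 11, Control week 19 library 1 or 3, or with no filter, rescaled sums or equal weights for the weeks. At week 11 alone the glycolytic enzyme Pfkp was called higher (difference 0.47, adjusted p = 0.0474 on 10 libraries). Without Control week 19 library 5, 11 genes of fatty acid use, 6 of the tricarboxylic acid cycle, 6 of glycolysis, 1 of complex I and 1 of complexes II to V were called lower, and 2, 0, 0, 3 and 2 were called higher. With quantile normalization 7 genes of complex I, 10 of complexes II to V and 4 of fatty acid use were called lower. None of 18 circadian, 24 immediate-early and 16 cell cycle genes was called on 10 or 24 libraries. Without Control week 19 library 5, 3 circadian and 3 immediate-early genes were called lower and 2 cell cycle genes higher. Without that library 1502 genes were called lower and 1410 higher of all 12505 tested. The genes of cytosolic ribosomal proteins lay above control in 79 of 80, with a median of 0.41, but 2 were called, and none separated the groups. Control week 19 library 5 decided this list: without it 74 of the 80 were called higher and the median was 0.56. With the trends on GC content and length removed the median was 0.22 and 2 were called, and with rescaled sums none was.

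The weeks differed from each other in a small set of genes. On 24 libraries none was called in Recovery week 13 against Recovery week 11 by limma, with 159 higher and 333 lower at an unadjusted p under 0.05. On 10 libraries 1 gene was higher and 10 lower at week 13 (0.00799% and 0.0799% of 12523), and most of these genes are named, after their values were seen. The p-values between the weeks given for them rest on these 10 libraries, and none of these genes was called on 24. Without either library of Recovery week 13 no gene was lower and 3 (without library 1) or 1 (without library 2) were higher, where the lone library of that week was assumed to vary like the other groups; none was called without Recovery week 11 library 2, and 16 were higher and 40 lower without Control week 19 library 5. Against control, 172 genes were higher and 51 lower at week 11 (1.37% and 0.407%), and 87 higher and 119 lower at week 13 (0.695% and 0.95%); on 24 libraries these counts were 18 and 1 (0.141% and 0.00784%) and 7 and 3 (0.0549% and 0.0235%). Of the 513 genes called for both weeks together, 187 were also called at week 11 alone, 158 at week 13 alone and 53 at each.

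Eln, the elastin of vessel walls and valves, was at 27.4, 27 and 23.5 FPKM in Recovery week 11, 6.65 and 7.2 in Recovery week 13 and 13.2, 11.9, 12.6, 19.3 and 11.8 in the controls. The week 11 hearts lay above and the week 13 hearts below every control, and week 13 minus week 11 was -1.83 (SE 0.184, adjusted p = 0.00696). Cdkn1a, the cell cycle inhibitor p21, was at 65.5, 55.3 and 59.5 FPKM at week 11, 20.5 and 19.3 at week 13 and 22.1, 31.6, 31.5, 39.2 and 32.8 in the controls, again on either side, and differed between the weeks by -1.57 (SE 0.187, adjusted p = 0.0161). Edn1, the vasoconstrictor endothelin 1, was at 3.13, 2.5 and 2.6, then 0.787 and 0.962, against 1.69, 1.41, 1.52, 1.82 and 1.66 FPKM, with -1.24 (SE 0.141, adjusted p = 0.0149) between the weeks. Rin3, a regulator of endocytosis, was at 11.8, 10.4 and 9.68, then 5.14 and 4.97, against 8.75, 9.2, 8.88, 8.94 and 8.5 FPKM, with -1.0 (SE 0.0989, adjusted p = 0.00696).

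Pdk4, the kinase that turns the heart from glucose to fat, was at 148, 131 and 138 FPKM at week 11, above every control, and at 36.1 and 36.2 at week 13, inside the control range of 29.2 to 59.6. The weeks differed by -1.93 (SE 0.26, adjusted p = 0.0307). In Recovery week 19 it was at 75 to 175 FPKM. Fkbp5, a chaperone induced by glucocorticoids, was at 29.4, 29.6 and 25.9 FPKM at week 11, 8.1 and 9.54 at week 13 and 12.5, 15.4, 15.3, 14.2 and 9.01 in the controls, and the weeks differed by -1.63 (SE 0.198, adjusted p = 0.0161). Gpr22, a receptor of cardiomyocytes, ran the other way: it was at 2.03, 2.41 and 2.26 FPKM at week 11 and at 4.6 and 4.23 at week 13, where the controls were at 4.15, 3.95, 4.62, 4.19 and 3.65, and the weeks differed by 0.85 (SE 0.12, adjusted p = 0.0398). Sox18, a transcription factor of endothelial cells, differed by -0.95 (SE 0.14, adjusted p = 0.0471), Plxna2 by -0.83 (SE 0.121, adjusted p = 0.0471) and Col5a3 by -0.82 (SE 0.107, adjusted p = 0.0248), each with week 13 under the lowest control.

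The 14 genes of the glucocorticoid and metal response, to which Fkbp5 and Cdkn1a belong, gave 2 higher and 1 lower over both weeks on 10 libraries. At week 11 alone 6 were higher and none lower, and at week 13 alone 1 was higher and 1 lower. Over both weeks none was called with rescaled sums and 1 was higher with no filter. Without Control week 19 library 5, 6 were higher and 3 lower. Whether the list differed between the weeks was not tested. Of its members only Fkbp5 and Cdkn1a were called between the weeks. Metallothionein Mt2 was at 296, 251 and 219.9 FPKM at week 11, 115 and 180.4 at week 13 and 134, 155, 125, 117 and 103 in the controls. It differed by 1.01 (SE 0.168, adjusted p = 0.0184) at week 11 and 0.19 (SE 0.192, adjusted p = 0.565) at week 13. Each p-value given for the genes of this list rests on 10 libraries. Mt1 differed by 0.60 (SE 0.13, adjusted p = 0.0474) and 0.15 (SE 0.148, adjusted p = 0.564), and Cebpd by 0.76 (SE 0.161, adjusted p = 0.0448) and 0.16 (SE 0.184, adjusted p = 0.611). Tsc22d3 (GILZ), an immediate target of the glucocorticoid receptor, did not separate the weeks: it was at 109.8, 142 and 132 FPKM at week 11, 114 and 124 at week 13 and 78, 87, 83, 69.1 and 74.5 in the controls, with 0.70 (SE 0.103, adjusted p = 0.0125) and 0.60 (SE 0.117, adjusted p = 0.0384). Zbtb16 was at 7.76, 10.6 and 4.13, 1.26 and 1.45 and 8.07, 8.44, 13.2, 12.5 and 5.06 FPKM and was the one called lower at week 13, with a difference of -2.35 (SE 0.368, adjusted p = 0.0247). Klf9, Klf15, Sgk1 and Errfi1, targets too, were not called at either week.

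Of the clock genes, which follow the hour at which a heart is taken, none was among those called between the weeks. Dbp and Arntl were among the genes fixed for naming. Dbp was at 40.2, 50 and 32.4 FPKM at week 11, 111 and 96.6 at week 13 and 77.1, 82.2, 78.9, 39.5 and 34.3 in the controls, and Arntl, which runs in the opposite phase, was at 1.76, 2.0 and 3.24, 0.529 and 0.652 and 1.22, 0.844, 0.931, 2.87 and 2.44 FPKM. The week 13 hearts were high in Dbp and low in Arntl, and control libraries 4 and 5 were the reverse. The sources used here give no hour, and the part of the hour in the differences between the weeks was not tested.

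**Figure D5:**
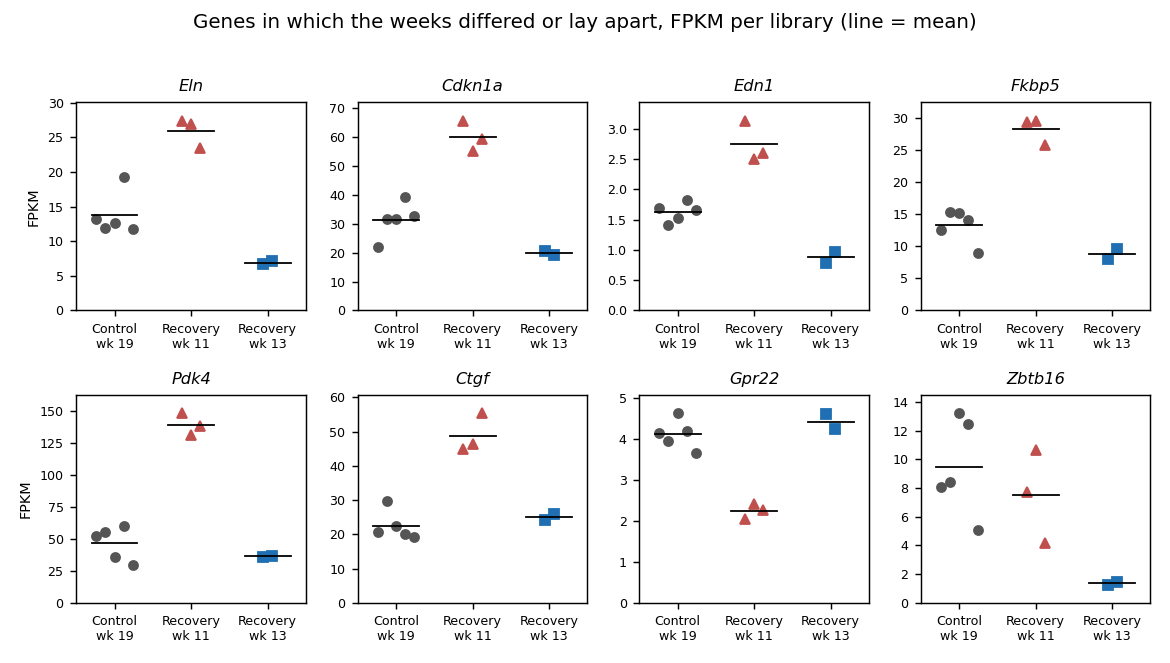
FPKM (vertical axis, from 0) of 8 genes in each library of Control week 19 (grey circles, n = 5), Recovery week 11 (red triangles, n = 3) and Recovery week 13 (blue squares, n = 2), with a line at the group mean. Eln, Cdkn1a and Edn1 lie above all controls at week 11 and below all at week 13; Ctgf at week 13 lies within the control range and Gpr22 lies low at week 11.

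Beside Recovery week 19, mid recovery differed in few genes on 24 libraries: 4 were called higher (0.0314% of 12759) and 0 lower, with 630 and 732 at an unadjusted p under 0.05 by limma. Of the 4, 3 were listed at 0 in Recovery week 19 hearts and the fourth was Cd200, a membrane glycoprotein that restrains myeloid cells, with a difference of 1.42 (adjusted p = 0.0147). Without genes listed at 0 no gene was called higher, Cd200 included. In Recovery week 19, Pdgfra was at 4.1 to 5.41 FPKM, Vat1 at 22.5 to 33.2 and Bmper at 1.23 to 3.04. Inmt was at 30.9 to 96.7, Myo5c at 1.35 to 3.42 and Slc25a47 at 2.99 to 4.53 FPKM there. In each of these 6 genes the range of Recovery week 19 overlapped that of mid recovery. Median differences of mid recovery from Recovery week 19 were 0.36 for macrophage markers, 0.33 for complement, 0.36 for fibroblast markers and 0.36 for ribosomal proteins, 0.18 for collagens and matrix, -0.15 for hypoxia targets, -0.29 for ion channels and -0.16 for heat shock genes, where all genes tested had 0.00564. The macrophage sum was 276 to 324 FPKM in Recovery week 7 and 320.1 to 565 in Recovery week 9 (n = 2 each), so that every mid recovery library lay above all 4. The comparisons with control and with Recovery week 19 share the mid recovery libraries, and their values are set side by side with no test between them.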

How the data were processed

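RNA sequencing of mouse heart was deposited as 1 table of FPKM values per gene symbol and library; per the labels and the methods, the authors aligned paired-end reads of poly(A) RNA with TopHat2 to mm9 and computed FPKM with Cuffdiff. The scaling between libraries is not given in the sources used here. Columns were matched to groups by name; 5 columns of Control week 5 were not used because 4 samples carry that label, and library numbers only name columns. Here log2(FPKM + 0.5) of genes averaging 0.5 FPKM or more was fitted with limma 3.58.1 (R 4.3.3, eBayes with trend) over 24 libraries in 8 groups (16 residual degrees of freedom) and over the 10 libraries of the comparison (7), with Benjamini-Hochberg adjustment over 12759 and 12523 genes at 0.05. Mid recovery weighted its 5 libraries equally. The code was tested on simulated data. GC content and length were known for 93.6% of genes tested.

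Genes were named by a rule: up to 12 rises and 12 falls with adjusted p under 0.05 on 24 libraries, no overlap, a mean of at least 1 FPKM, no group listed at 0 and no clone name; up to 2 rises and 2 falls called per list; up to 5 rises and 5 falls between the weeks; and 16 fixed genes. Only 9 rises and 2 falls passed the first part. All other genes named were chosen after their values were seen. The comparison, the gene lists and the rule were chosen with earlier results of these data known. Alternatives covered the pseudocount, filter, scaling, weights, GC and length trends, and each library left out. The hearts came from separate mice per the methods, but columns cannot be tied to animals, so p-values measure the spread between these libraries. FPKM give no absolute depth, and no counting interval is given. The result for 1 gene is not reported here.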

Additional observations from a re-analysis of the deposited data

Results flagged for a closer look

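Single libraries stood far from the other 4 of their group, by a gap above Dixon's 95% critical value, in 18 of 262 groups of values (131 genes in Control week 19 and in mid recovery); chance gives about 1 in 20. Control week 19 library 5 accounted for 9 of the 18. It was the highest control for Aif1 at 9.85, P4ha1 at 19.9, Rbm5 at 28.8, Fibin at 4.26, Lgals3 at 14, Mgp at 484 (all in FPKM), and the lowest for Col6a1 at 15.9, Klf9 at 5.6, Klf15 at 20.9. Ccl8 was highest in Recovery week 13 library 2, at 79.4 FPKM beside 31.4 in the nearest. Acta1 was highest in Recovery week 11 library 3, at 902 FPKM beside 430 in the nearest. Loxl1 was lowest in Control week 19 library 3, at 17.7 FPKM beside 20.9 in the nearest. Rbm25 was highest in Recovery week 11 library 2, at 8.65 FPKM beside 6.96 in the nearest. Tgfb1 was lowest in Recovery week 11 library 2, at 14.8 FPKM beside 16.6 in the nearest. Vldlr was highest in Control week 19 library 4, at 20 FPKM beside 17.3 in the nearest. Ush1c was lowest in Control week 19 library 1, at 2.03 FPKM beside 2.28 in the nearest. Eln was highest in Control week 19 library 4, at 19.3 FPKM beside 13.2 in the nearest. Klf9 was highest in Recovery week 11 library 2, at 14 FPKM beside 8.44 in the nearest.

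The weeks of mid recovery differed from each other, by limma on 10 libraries with adjusted p under 0.05, in genes given here as week 13 minus week 11 on the log2 scale: Cdkn1a -1.57, Col5a3 -0.821, Edn1 -1.24, Eln -1.83, Fkbp5 -1.63, Gpr22 0.847, Pdk4 -1.93, Plxna2 -0.827, Rin3 -1.0, Sox18 -0.951. For Cdkn1a (-40.2 FPKM), Edn1 (-1.87 FPKM), Eln (-19 FPKM), Rin3 (-5.59 FPKM) every heart of week 11 lay above and every heart of week 13 below all controls, with the difference of the week means in brackets. None of these genes was called on 24 libraries.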

How the results depend on the processing

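No paired analysis was possible because the columns carry no number that ties them to the labelled animals. The 24-library calls rested on few genes, and of the 11 genes named by size of change only Ms4a7 kept its call under all the alternatives on 24 libraries; on 10 libraries 9 of the 11 kept theirs under all alternatives run there. None of the 11 reversed. Rescaling the libraries without their highest genes and the genes listed at 0 shifted the median of all genes by -0.114 on the log2 scale. Alternatives without HF weeks 3 and 5, without genes listed at 0, without Control week 19 library 5 and Recovery week 11 library 3 together (both libraries), and those run on 10 libraries were added after seeing the data. Where counts moved, the cause was not tested. Mid recovery against control on 24 libraries gave 16 higher, against 10 with no filter, 798 at an unadjusted p under 0.05, 302 on 10 libraries, 29 with quantile normalization, 34 with GC and length trends removed, 212 without HF weeks 3 and 5, 2 without genes listed at 0, 8 without both libraries and 7 to 35 with single libraries left out. It gave 2 lower, against 0 with no filter, 835 at an unadjusted p under 0.05, 211 on 10 libraries, 7 with quantile normalization, 0 with rescaled sums, 6 with GC and length trends removed, 98 without HF weeks 3 and 5, 0 without genes listed at 0, 0 without both libraries and 0 to 7 with single libraries left out. Recovery week 11 against control on 24 libraries gave 18 higher, against 8 with no filter, 624 at an unadjusted p under 0.05, 172 on 10 libraries, 11 with rescaled sums, 148 without HF weeks 3 and 5, 0 without genes listed at 0, 6 without both libraries and 6 to 62 with single libraries left out. It gave 1 lower, against 0 with no filter, 454 at an unadjusted p under 0.05, 51 on 10 libraries, 3 with quantile normalization, 0 with rescaled sums, 3 with GC and length trends removed, 35 without HF weeks 3 and 5, 0 without genes listed at 0, 0 without both libraries and 0 to 6 with single libraries left out. Recovery week 13 against control on 24 libraries gave 7 higher, against 15 with no filter, 533 at an unadjusted p under 0.05, 87 on 10 libraries, 35 without HF weeks 3 and 5, 0 without genes listed at 0, 12 without both libraries and 6 to 13 with single libraries left out. It gave 3 lower, against 797 at an unadjusted p under 0.05, 119 on 10 libraries, 1 with median centring, 1 with quantile normalization, 27 without HF weeks 3 and 5, 0 without genes listed at 0 and 0 to 4 with single libraries left out. Recovery week 13 against Recovery week 11 on 24 libraries gave 0 higher, against 5 with no filter, 159 at an unadjusted p under 0.05, 1 on 10 libraries, 5 without HF weeks 3 and 5 and 0 to 1 with single libraries left out. It gave 0 lower, against 333 at an unadjusted p under 0.05, 10 on 10 libraries, 9 without HF weeks 3 and 5 and 0 to 1 with single libraries left out. Mid recovery against Recovery week 19 on 24 libraries gave 4 higher, against 630 at an unadjusted p under 0.05, 0 without genes listed at 0 and 3 to 4 with single libraries left out. It gave 0 lower, against 1 with a mean of at least 1 FPKM, 732 at an unadjusted p under 0.05, 1 with rescaled sums, 2 with GC and length trends removed, 2 without HF weeks 3 and 5, 1 without both libraries and 0 to 0 with single libraries left out. Mid recovery against control on 10 libraries gave 302 higher, against 97 with no filter, 1514 at an unadjusted p under 0.05, 95 with rescaled sums, 1204 without both libraries and 81 to 1410 with single libraries left out. It gave 211 lower, against 48 with no filter, 1524 at an unadjusted p under 0.05, 48 with rescaled sums, 1366 without both libraries and 24 to 1502 with single libraries left out. Recovery week 11 against control on 10 libraries gave 172 higher, against 56 with no filter, 1169 at an unadjusted p under 0.05, 73 with rescaled sums, 294 without both libraries and 13 to 815 with single libraries left out. It gave 51 lower, against 6 with no filter, 1023 at an unadjusted p under 0.05, 11 with rescaled sums, 146 with GC and length trends removed, 193 without both libraries and 0 to 697 with single libraries left out. Recovery week 13 against control on 10 libraries gave 87 higher, against 25 with no filter, 1363 at an unadjusted p under 0.05, 24 with rescaled sums, 1541 without both libraries and 7 to 1035 with single libraries left out. It gave 119 lower, against 14 with no filter, 1378 at an unadjusted p under 0.05, 48 with rescaled sums, 1622 without both libraries and 2 to 1075 with single libraries left out. Genes that were not called and changed sign did so as follows, as differences on the log2 scale. Arntl was -0.32 to 0.15 with single libraries left out. Col5a3 was 0.00564 with GC and length trends removed. Dbp was -0.0909 and -0.0933 with quantile normalization, -0.12 with rescaled sums, -0.0341 and -0.0358 with GC and length trends removed, -0.22 to 0.22 with single libraries left out. Edn1 was -0.00777 with equal weights, -0.0494 to 0.32 with single libraries left out. Eln was -0.00222 with equal weights, -0.0147 without both libraries, -0.0215 to 0.47 with single libraries left out. Errfi1 was -0.28 to 0.38 with single libraries left out. Klf4 was -0.17 to 0.0822 with single libraries left out. Rin3 was -0.29 to 0.0032 with single libraries left out. S100a4 was -0.12 with GC and length trends removed. Sgk1 was -0.0339 with quantile normalization, -0.10 with rescaled sums, -0.0368 with equal weights, -0.12 to 0.14 with single libraries left out. Slc30a1 was -0.10 with rescaled sums, -0.0309 to 0.0595 with single libraries left out.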

Other observations

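Other genes moved strongly without belonging to a list, and some of those called on 10 libraries are given here, chosen after their values were seen. Lgals3, the galectin of macrophages and scar tissue, was at 15.4, 14.5 and 22.4 FPKM in Recovery week 11, 23.1 and 28 in Recovery week 13 and 7.79, 7.3, 5.58, 5.46 and 14 in the controls, a difference of 1.35 (SE 0.231, adjusted p = 0.0174 on 10 libraries and 0.217 on 24). Every mid recovery heart lay above the highest control, library 5. Mgp, a matrix protein that keeps calcium from being laid down, was at 613, 1053 and 1576, 572 and 809 and 347, 348, 361, 336 and 484 FPKM, a difference of 1.21 (SE 0.224, adjusted p = 0.023 on 10 libraries and 0.0956 on 24). Igfbp6, a binding protein of insulin-like growth factor 2, was at 40.6 to 109 against 17.4 to 26.8 FPKM and differed by 1.3 (SE 0.223, adjusted p = 0.0175 on 10 libraries and 0.0754 on 24). Fibin was at 4.57 to 19.7 against 2.22 to 4.26 FPKM, a difference of 1.49 (SE 0.321, adjusted p = 0.0345 on 10 libraries and 0.0754 on 24). Hcst, a signalling adaptor of lymphoid and myeloid cells, differed by 1.44 (SE 0.267, adjusted p = 0.0232 on 10 libraries and 0.203 on 24).

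Of the falls, Rnf207, a ubiquitin ligase of cardiomyocytes that acts on a potassium channel, was at 11.1, 17.4 and 9.62 FPKM in Recovery week 11, 11 and 12.7 in Recovery week 13 and 26.7, 21.3, 23.8, 24.5 and 19.3 in the controls, a difference of -0.90 (SE 0.149, adjusted p = 0.0163 on 10 libraries and 0.172 on 24). Adamts7, a protease of the matrix, was at 1.18 to 2.92 against 3.22 to 6.03 FPKM and differed by -0.95 (SE 0.209, adjusted p = 0.0348 on 10 libraries and 0.117 on 24). Inha, the alpha chain of inhibin, differed by -1.17 (SE 0.226, adjusted p = 0.0255 on 10 libraries and 0.142 on 24), and Tmem86b, an enzyme that breaks down lysoplasmalogens, by -1.01 (SE 0.144, adjusted p = 0.00954 on 10 libraries and 0.195 on 24). In all these genes the mid recovery libraries lay on one side of the controls, and none was called on 24 libraries. Among chaperones of the endoplasmic reticulum Hspa5 (BiP) was the one called lower, at 108 to 128 against 140.4 to 166 FPKM, a difference of -0.32 (SE 0.0717, adjusted p = 0.0361 on 10 libraries and 0.397 on 24); without Recovery week 11 library 1 or 3, Recovery week 13 library 2 or any one of Control week 19 libraries 1 to 4, with no filter or with median centring none was, with rescaled sums or GC and length trends removed 2 were, and without Control week 19 library 5, 3 were.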
